A study of Caenorhabditis elegans with 43 samples.

Results

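The genes described here are the Hedgehog-related and patched-related genes of Caenorhabditis elegans, the Warthog (wrt), Groundhog (grd), Ground-like (grl) and patched-related (ptr) families. They were chosen by name alone, as every gene of the filtered table whose symbol is one of these 4 prefixes followed by a number. Of 82 such genes in the unfiltered table, 55 are in the filtered table, which holds 13837 genes: 9 of 10 wrt, 11 of 17 grd, 13 of 32 grl and 22 of 23 ptr genes. The other 27 were not tested. All of them had at least 1 read, and the highest level any of them reached in a library was 10.7 CPM (reads of a gene scaled to library size), for grl-25. RNA was sequenced from whole prefertile young adult worms in 43 libraries from 3 sequencing batches. Wild-type worms (WT) were sequenced in each batch, with 3 libraries in batch 1, 6 in batch 2 and 3 in batch 3. Batch 1 also held 6 atfs1et17 and 5 atfs1et15 libraries (2 gain-of-function alleles with point mutations in the mitochondrial targeting sequence of ATFS-1), 3 hif1 libraries (hif-1(ia4)), 2 nuo6hif1 libraries (nuo-6(qm200) with hif-1(ia4)) and 3 libraries labelled atfs1DEL, a deletion of atfs-1. Batch 2 also held 6 nuo6 libraries, from nuo-6(qm200) worms, which carry a mutation in a subunit of mitochondrial complex I. Batch 3 also held 3 atfs1 libraries, whose label names no allele, and 3 libraries labelled NA238, read here as nuo-6;atfs-1 although the label gives no genotype. The strains of the study include 1 atfs-1 deletion, gk3094. ATFS-1 is the transcription factor of the mitochondrial unfolded protein response and HIF-1 is the hypoxia-inducible factor. Each genotype was compared with WT libraries of its own batch, because the study asked which transcripts differ in these mutants and genotypes were spread unevenly over batches.

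C. elegans has no Hedgehog ligand of the fly and vertebrate type and no Smoothened. Instead, it has large families of secreted proteins that share domains with Hedgehog: WRT and GRD proteins carry amino-terminal domains of their own, many joined to a Hedgehog-type autoprocessing domain, and GRL proteins have the Ground-like domain without it. PTR proteins are multipass membrane proteins related to the Hedgehog receptor Patched, with a sterol-sensing domain. Many of these genes are transcribed in the epidermis, seam cells and glia, their transcripts rise and fall with each larval molt, and loss of many of them disturbs molting and the cuticle. A level in whole worms cannot tell fewer cells of a type from less RNA per cell.

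The 55 genes were spread over all 6 chromosomes, with 18 on V, 9 each on I and X, 8 each on II and IV and 3 on III (WBcel235). A pair and a trio lay side by side. wrt-1 (II, 7530996 to 7533246, plus strand) and wrt-10 (II, 7533262 to 7534563, minus strand) ended 15 bases apart on opposite strands. grd-13 (IV, 3438312 to 3439507), grd-3 (IV, 3439655 to 3440453) and grd-10 (IV, 3441055 to 3441841) lay in that order on the plus strand, with gaps of 147 and 601 bases. Averaged over all libraries and per kilobase of exon, the highest level belonged to grd-5 (269 normalized CPM per kb), followed by grl-16 (245), grd-14 (134) and grd-3 (124). The lowest was that of ptr-22 (0.51 normalized CPM per kb).

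Several libraries stood apart before any comparison was made. Levels of the 18 molting genes listed as stage markers (among them mlt-10, noah-1 and nas-37) summed to between 382 and 1156 normalized CPM in WT of batch 1 and to between 819 and 4878 in WT of batch 2, where replicate 7 was the highest. The summed level of the 55 genes moved the same way, from 1919 to 4530.0 normalized CPM over WT of batch 2, again with replicate 7 the highest. Within WT of batch 1, 46 of the 55 genes had their highest value in replicate 2, which also had the highest molting genes, against 38.6% of all genes. Within WT of batch 2, 35 of the 55 had their highest value in replicate 7, against 31.7% of all genes. grd-3 and ptr-2 went the other way, with their lowest value in the library of highest molting genes in all 3 WT groups. Of all genes, 43.3%, 28.4% and 36.2% had their lowest value in those libraries of batches 1, 2 and 3. The median gene of the 55 differed 3.54-fold between the highest and lowest WT library of batch 1 and 3.10-fold in batch 2. The widest range was 28.5-fold, in batch 1.

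The 3 libraries labelled atfs1DEL in batch 1 also stood apart. Of all 903 pairs of libraries, the 3 most alike each joined an atfs1DEL library to an atfs1 library of batch 3 (Pearson r across genes 0.9982 to 0.9984), whereas atfs1DEL and WT libraries of batch 1 gave r between 0.938 and 0.974. The pairs matched 1 to 1: atfs1DEL replicate 1 with atfs1 replicate b, 2 with bl and 3 with r. The next most alike pair, atfs1 replicates bl and r, gave r of 0.9971. Libraries were kept separate by label. Whether the 2 sets come from the same worms was not tested, so they cannot be counted as independent. Body wall muscle genes were between 2758 and 5775 normalized CPM in atfs1DEL and between 9603 and 11063 in WT of batch 1, but between 2346 and 4486 in WT of batch 3. How these libraries came to resemble batch 3 was not tested, and the atfs1DEL comparison is given with both sets of WT controls. Level of hif-1 mRNA was between 18.5 and 32.3 normalized CPM in hif1 and between 35.0 and 43.4 in nuo6hif1, against 191 to 220.3 in WT of batch 1. Level of atfs-1 mRNA was between 24.6 and 26.5 normalized CPM in atfs1DEL, between 24.5 and 30.3 in atfs1 and between 25.6 and 29.2 in NA238, against 55.9 to 74.1 in WT of batch 3. The nuo-6 mutation leaves a transcript, so its mRNA does not check that label. Between 21466920 and 48493377 reads were counted per library.

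Among the 8 groups compared with WT, the 55 genes were mostly called higher in nuo6hif1 and atfs1et15 and called lower more often than higher in nuo6. In NA238, 16.4% of them were called, near the 17.2% of all genes. Here and below, a gene was called when its adjusted p from limma (Benjamini-Hochberg over 13837 genes) was under 0.05, and a log2 fold change is on the log2(normalized CPM + 0.5) scale. Counts from fits that left out 1 library are given below without the share of all genes in the same fit. A change in such a count is thus not by itself a trait of the 55 genes. In nuo6hif1, 37 of 55 genes rose and 3 fell, where 56% of all genes were called, 29.8% as higher and 26.2% as lower. In atfs1et15, 34 rose and 4 fell (33.3% of all genes called, 16.9% as higher and 16.4% as lower). In nuo6, 5 rose and 26 fell (40.3% of all genes called, 22.4% as higher and 18% as lower). In NA238, 8 rose and 1 fell (17.2% of all genes called, 11.1% as higher and 6.03% as lower). No gene of the 55 was called in atfs1, atfs1et17 or hif1, where 0.188%, 4.09% and 0.52% of all genes were called. Shares of all genes called higher and lower were 0.152% and 0.0361% in atfs1, 2.85% and 1.24% in atfs1et17, and 0.369% and 0.152% in hif1. Median log2 fold change of the 55 genes was 1.41 in nuo6hif1, 1.26 in atfs1et15 and -0.65 in nuo6, beside 0.04, -0.04 and -0.03 over all genes. Of the 55, only grd-5, grl-21 and ptr-24 were called in none of these 8 comparisons. grd-5, the ligand gene of highest level per length, was between 106.5 and 169 normalized CPM in WT of batch 1 and between 141.6 and 205 in atfs1et15, so the groups overlapped. grl-21 and ptr-24, which in C. elegans have been tied to lipid storage and mitochondrial dynamics, had log2 fold changes between -0.52 and 0.45 and between -0.54 and 0.07 over the 8 comparisons.

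**Figure D1:**
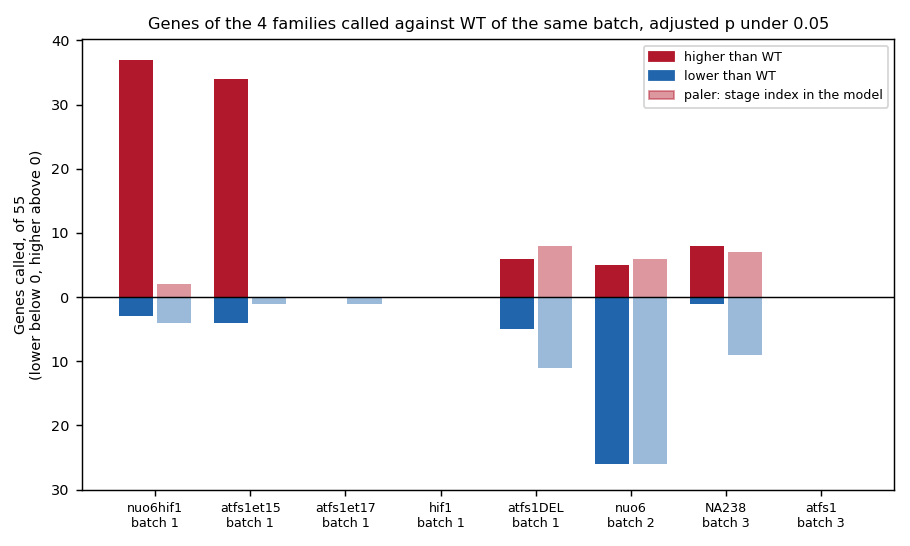
Number of the 55 genes called higher (red, above 0) or lower (blue, below 0) than WT of the same batch in each genotype, with the main model (full colour) and with the stage index added to the model (pale). The 37 and 34 rises in nuo6hif1 and atfs1et15 became 2 and 0 with the index, whereas in nuo6 the number called lower was 26 in both models.

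In atfs1et15 worms, most wrt, grl and ptr genes rose, whereas grd genes were split. Of the 9 wrt genes 7 rose, of the 13 grl genes 10 rose and of the 11 grd genes 4 rose and 3 fell, with median log2 fold changes of 2.05, 1.38 and 0.65. Of the 22 ptr genes, 13 rose and 1 fell, with a median of 0.71. Groups did not overlap for 20 of the 55 genes on the higher side and 1 on the lower, beside 15.6% and 11.6% of all genes. wrt-10 was at 53.1, 95.8, 25.9, 26.7 and 28.9 normalized CPM in the 5 atfs1et15 libraries and at 1.43, 8.19 and 0.581 in WT of batch 1. Every atfs1et15 library was thus above every WT library, and the fold change was 15.4 (log2 fold change 3.95, SE 0.74, adjusted p from limma 0.000121). Its neighbour wrt-1 was at 73.9, 141, 47.0, 41.6 and 36.3 normalized CPM, against 2.02, 16.7 and 1.31 in WT. Means were 68.0 ± 43.3 (SD, n = 5) and 6.67 ± 8.66 (SD, n = 3). The groups did not overlap for wrt-1, and its log2 fold change was 3.81 (SE 0.76). wrt-2, whose product belongs to the same Warthog family, was at 42.6, 71.6, 23.6, 25.2 and 25.3 normalized CPM in atfs1et15 and at 0.862, 9.88 and 0.520 in WT. Its log2 fold change was 3.83 (SE 0.80). In all 3 wrt genes the highest atfs1et15 library was replicate 3 and the highest WT library was replicate 2, the libraries with the highest molting genes of their groups.

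Among Ground-like genes, grl-5 and grl-7 had the largest changes with no overlap in atfs1et15, with log2 fold changes of 3.56 (SE 0.79) and 3.54 (SE 0.80). grl-5 was at 86.2, 135, 72.3, 72.9 and 55.04 normalized CPM and at 3.33, 40.8 and 1.53 in WT. grl-7 was at 121, 169, 103, 106 and 80.6 normalized CPM and at 5.02, 56.6 and 2.38 in WT. In both genes WT replicate 2 lay far above its fellows but below every atfs1et15 library. grl-16, the grl gene of highest level, was at 764, 856, 847, 715 and 605 normalized CPM, against 239, 652 and 153 in WT, so that the groups overlapped, and it was called (log2 fold change 1.38, SE 0.48, adjusted p from limma 0.0252).

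The trio on chromosome IV went the opposite way in atfs1et15. grd-3, grd-13 and grd-10 fell by 1.32, 1.13 and 0.96 on the log2 scale (SE 0.29, 0.28 and 0.27). grd-3 was at 23.9, 23.6, 47.4, 61.1 and 28.1 normalized CPM, against 105, 49.2 and 121 in WT. The lowest WT library of grd-3 was again replicate 2, and it lay below the highest atfs1et15 library. Of the receptor-like genes, ptr-13 alone fell, by 0.79 on the log2 scale (SE 0.20, adjusted p from limma 0.00261). It was at 17.3, 13.3, 18.8, 19.9 and 21.6 normalized CPM in atfs1et15 and at 33.5, 27.3 and 33.6 in WT, with no overlap. ptr-10, a gene expressed in glia and often used to mark them, was at 9.99, 20.4, 3.92, 4.08 and 7.02 normalized CPM, against 0.238, 1.71 and 0.306 in WT, and rose by 2.87 on the log2 scale (SE 0.57).

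Stage markers moved with these calls. In atfs1et15, 13 of 18 molting genes rose and none fell (median log2 fold change 2.30), all 6 yolk genes fell (median -3.79) and 8 of 14 oocyte genes fell (median -1.15). Tissue markers moved as well, with 4 of 6 adult cuticle genes higher and 1 lower (median 3.27). Epidermis genes were higher in 3 of 6 cases and lower in 1, and glia and socket genes higher in 2 of 5 and lower in 1. Summed adult cuticle genes were between 1371 and 2063 normalized CPM in atfs1et15, overlapping the 1798 to 2272 in WT of batch 1. Summed yolk genes were between 1674 and 14384 normalized CPM in atfs1et15 and between 27022 and 76683 in WT of batch 1. A stage index, the first component of 56 molting, yolk, oocyte and sperm genes within WT libraries, was between 5.2 and 16.7 in atfs1et15, above the highest WT value of batch 1 (2.1) and partly above the highest of all WT libraries (11.6). With this index in the model, 0 genes rose and 1 fell in atfs1et15 in place of 34 and 4 (14.2% of all genes called in place of 33.3%), and the log2 fold change of wrt-10 became 0.69 (adjusted p from limma 0.258). The number called was 21 without WT replicate 3 and 24 without WT replicate 1. What part stage has in these changes was not tested.

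In atfs1et17 worms, the other gain-of-function allele, no gene of the 55 was called by limma, edgeR or DESeq2. At an unadjusted p under 0.05, 12 were higher and 1 was lower (ptr-24). The share of all genes at that threshold was not computed, so these counts are not by themselves a trait of the 55 genes. Of the 55 log2 fold changes 46 were positive, with a median of 0.43. Over all genes 6539 of 13837 were positive, with a median of -0.02. wrt-1 ranged from 3.51 to 26.99 normalized CPM over the 6 atfs1et17 libraries (median 13.5), of which 3 were above the highest WT library (16.7) and 3 were within the WT range. No atfs1et17 library was below the lowest WT library. Leaving out WT replicate 2, the WT library with the highest molting genes of batch 1, gave 10 rises. This count too is given without the share of all genes, and is not by itself a trait of the 55 genes. Tested directly, atfs1et15 exceeded atfs1et17 in 11 of the 55 genes and was below it in 4 (11.4% of all genes called, 6.29% as higher and 5.13% as lower). The largest were wrt-10, wrt-1 and wrt-2 (log2 fold changes 2.53, 2.23 and 2.20) and, below, grd-3, grd-10 and grd-13 (-1.10, -0.79 and -0.71). Molting and yolk genes differed between the alleles as well (medians 1.22 and -2.91), and 1 gene was called with the stage index in the model (2.07% of all genes). Counts fell to 4 without atfs1et15 replicate 3, 5 without atfs1et15 replicate 2 or atfs1et17 replicate 4, and 7 without atfs1et17 replicate 2 or 5. Calls of wrt-10 and grd-3 held in all 11 fits that left out 1 library, whereas those of wrt-1, wrt-2, grd-10 and grd-13 were lost in 3, 5, 6 and 8 of them, each time including those without atfs1et15 replicate 2 and atfs1et15 replicate 3.

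**Figure D2:**
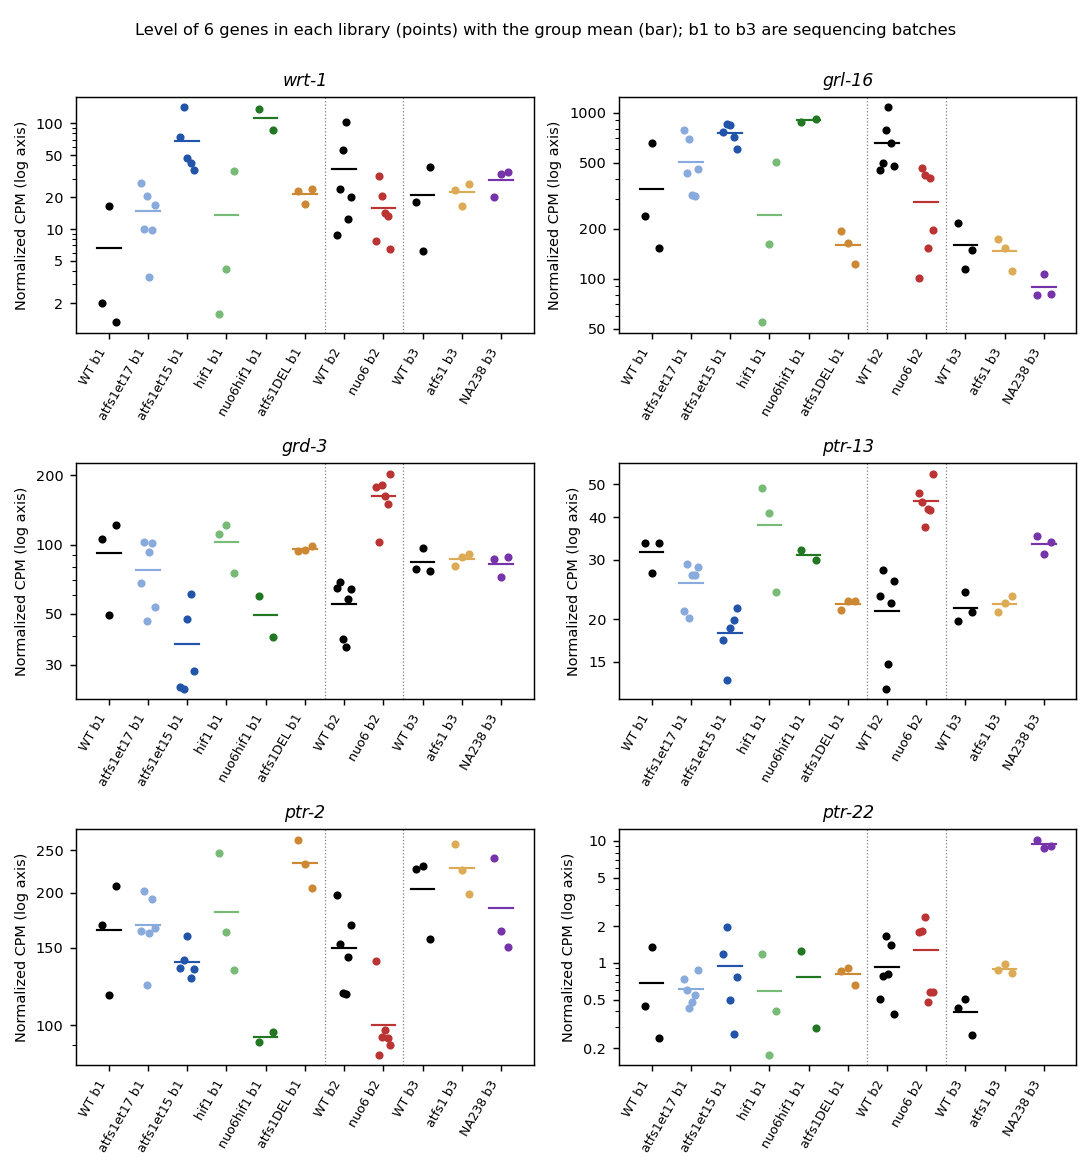
Normalized CPM of 6 genes (log axes) in every library (points) with the mean of each group (bar), by genotype and sequencing batch. wrt-1 and grl-16 were high in atfs1et15 and nuo6hif1, grd-3 and ptr-13 were high in nuo6, ptr-2 was low in nuo6 and nuo6hif1, and ptr-22 stood out in the 3 NA238 libraries, at 8.69 to 10.2 normalized CPM.

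In nuo6hif1 worms the rises were larger still, on 2 libraries. In all, 7 of 9 wrt, 12 of 13 grl, 4 of 11 grd and 14 of 22 ptr genes rose. Groups did not overlap for 35 of the 55 genes on the higher side and 3 on the lower, beside 34.5% and 29.1% of all genes. wrt-1 was at 136 and 85.6 normalized CPM against 2.02, 16.7 and 1.31 in WT, with a log2 fold change of 4.66 (SE 0.95, adjusted p from limma 0.000163). wrt-2 was at 56.8 and 57.4 normalized CPM (log2 fold change 4.57, SE 1.00), and wrt-10 at 39.0 and 71.7 (4.35, SE 0.93). All 3 lay above every WT library of batch 1. grl-15 and grl-7 were at 62.4 and 65.1 and at 144 and 159 normalized CPM, with log2 fold changes of 4.12 (SE 0.94) and 3.97 (SE 1.00). grl-22 rose from 1.04, 3.21 and 1.25 to 10.4 and 11.9 normalized CPM, and grl-4 from 68.7, 82.9 and 49.9 to 219.7 and 94.4. For both the groups did not overlap, and the log2 fold changes were 2.43 (SE 0.35) and 1.13 (SE 0.41).

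Only grd-10, grd-13 and ptr-2 fell in nuo6hif1. grd-10 was at 9.14 and 13.5 normalized CPM against 27.4, 13.6 and 21.6 in WT, just below the lowest WT library (log2 fold change -0.82, SE 0.34). Its call was lost without WT replicate 1, WT replicate 3 or nuo6hif1 replicate 2, with log2 fold changes between -1.09 and -0.55 over all 5 such fits. ptr-2, the ptr gene of highest level, was at 91.6 and 96.3 normalized CPM against 169, 117 and 207 in WT, with no overlap. It fell by 0.77 on the log2 scale (SE 0.25, adjusted p from limma 0.00949), which was not called without WT replicate 3 or nuo6hif1 replicate 2.

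The hif1 libraries alone gave no call among the 55 genes by limma, edgeR or DESeq2. At an unadjusted p under 0.05, 3 were lower (grd-6, grl-27 and ptr-3), a count given without the share of all genes. That is about as many of 55 genes as chance alone gives at this threshold. The smallest adjusted p from limma among the 55 was 0.63, for grl-27. The spread of the hif1 libraries was wide. wrt-1 was at 1.59, 4.15 and 35.2 normalized CPM in hif1, and replicate 3, the highest, held the highest value of 48 of the 55 genes, beside 35% of all genes. Summed molting genes were also highest there, at 1541 normalized CPM against 408 and 511. Against hif1, nuo6hif1 was higher in 39 genes and lower in 4 (51.9% of all genes called, 28% as higher and 23.9% as lower). wrt-1, wrt-10 and wrt-2 again had the largest rises (log2 fold changes 3.95, 3.73 and 3.69), and grd-13, grd-10 and grd-3 the largest falls (-1.46, -1.09 and -1.05). grd-13 was at 3.92 and 7.27 normalized CPM in nuo6hif1 and at 16.2, 20.7 and 11.3 in hif1. The call of grd-3 was lost without hif1 replicate 1, hif1 replicate 2 or nuo6hif1 replicate 3, and those of grd-10 and grd-13 without nuo6hif1 replicate 2. Fitted on these 5 libraries alone, 11 genes were called in place of 43, and 17.0% of all genes in place of 51.9%.

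In nuo6hif1, 14 of 18 molting genes rose (median log2 fold change 2.77), all 6 yolk genes fell (-4.54), 13 of 14 oocyte genes fell (-2.87) and 15 of 18 sperm genes fell (-1.84). Adult cuticle markers rose in 4 of 6 cases (median 3.95), epidermis markers rose in 3 of 6 and fell in 1, and glia and socket markers rose in 2 of 5. Summed adult cuticle genes were at 2889 and 2514 normalized CPM, against 1798 to 2272 in WT of batch 1. The stage index of nuo6hif1, 12.6 and 15.3, lay above that of every WT library, so the index is extended beyond the WT values that defined it. With the index in the model, 6 of the 55 genes were called against WT (2 higher, 4 lower) in place of 40, and 5 against hif1 in place of 43, where 14.5% and 6.55% of all genes were called. The sign turned for wrt-1, wrt-2, wrt-10, grl-15, grl-7, grd-10 and ptr-2, with wrt-1 at -0.062 (adjusted p from limma 0.956).

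In nuo6 worms 26 of the 55 genes fell and 5 rose. By family, 7 of 11 grd, 11 of 22 ptr, 4 of 9 wrt and 4 of 13 grl genes fell, and 1 grd (grd-3), 3 ptr (ptr-5, ptr-8 and ptr-13) and 1 grl gene (grl-1) rose. Groups did not overlap for 3 of the 55 genes on the higher side and 3 on the lower, a smaller share than the 9.05% and 6.09% of all genes on the higher side and near it on the lower. grd-6 ranged from 12.6 to 77.4 normalized CPM over the 6 nuo6 libraries (median 42.2) and from 77.5 to 113 (median 97.0) over the 6 WT libraries of batch 2. The groups just failed to overlap, and grd-6 fell by 1.43 on the log2 scale (SE 0.31, adjusted p from limma 0.000336). grd-14 ranged from 29.1 to 84.1 normalized CPM (median 47.6) against 84.5 to 161 (median 109), again with no overlap. Its log2 fold change was -1.14 (SE 0.25). ptr-14 ranged from 14.1 to 26.4 normalized CPM (median 21.6) against 28.5 to 55.3 (median 32.2), with a log2 fold change of -0.83 (SE 0.23). Median log2 fold change was -1.02 over the grd genes and -0.91 over the wrt genes, beside -0.03 over all genes.

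The largest fall in nuo6 was that of wrt-4, the wrt gene of highest level, although its groups overlapped. wrt-4 ranged from 8.88 to 57.7 normalized CPM in nuo6 (median 19.3) and from 53.0 to 318 in WT (median 121), with a log2 fold change of -2.65 (SE 0.55, adjusted p from limma 0.000198). Its highest nuo6 library was just above its lowest WT library. wrt-6 ranged from 11.6 to 60.5 normalized CPM (median 28.0) against 36.7 to 238 (median 63.8), and grl-16 from 101.0 to 463 (median 301) against 452 to 1075 (median 575). Their log2 fold changes were -1.59 (SE 0.59) and -1.32 (SE 0.38). ptr-2 ranged from 85.7 to 140.1 normalized CPM (median 93.6) against 117 to 198 (median 148), so that 1 nuo6 library lay within the WT range, and fell by 0.58 on the log2 scale (SE 0.16).

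grd-3 had the largest rise in nuo6, from 35.8 to 68.9 normalized CPM in WT (median 61.0) to between 102 and 204 (median 170.5). Means were 163 ± 34.8 (SD, n = 6) in nuo6 and 55.03 ± 14.2 (SD, n = 6) in WT, the groups did not overlap, and the fold change was 2.97 (log2 fold change 1.57, SE 0.23, adjusted p from limma 1.3e-06). Its neighbours on chromosome IV were not called in nuo6. grd-10 ranged from 12.6 to 28.2 normalized CPM (median 18.5) against 10.8 to 19.6 (median 15.6), and grd-13 from 6.44 to 15.98 (median 13.5) against 7.12 to 12.2 (median 8.78). ptr-13 rose from 12.5 to 27.9 normalized CPM in WT (median 22.8) to between 37.3 and 53.8 (median 43.3), a 2.15-fold change (log2 fold change 1.10, SE 0.16, adjusted p from limma 5.53e-07). ptr-5 ranged from 13.02 to 21.1 normalized CPM against 10.8 to 12.2, and rose by 0.50 on the log2 scale (SE 0.10). For grd-3, ptr-13 and ptr-5, every nuo6 library lay above every WT library of batch 2.

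Molting genes were lower in nuo6 as well, with 5 of 18 falling and none rising (median log2 fold change -0.75), while 0 of 6 yolk genes were called (median 0.23). The stage index ranged from -5.1 to 7.5 in nuo6 and from -1.1 to 11.6 in WT of batch 2. With the index in the model, 32 of the 55 genes were called (6 higher, 26 lower), against 31 without it, while the share of all genes called was 52.0% against 40.3%. The median log2 fold change of the 55 genes was -0.35 with the index and -0.65 without it. The log2 fold changes of grd-3, ptr-13 and grd-6 were then 1.34, 0.96 and -1.19, all called. Fewer genes were called without WT replicate 7 (18), without nuo6 replicate 1 (18) and without WT replicate 6 (19), and the calls of grd-3, ptr-13, ptr-5, grd-6, grd-14 and ptr-14 held in each of the 12 fits that left out 1 library.

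**Figure D3:**
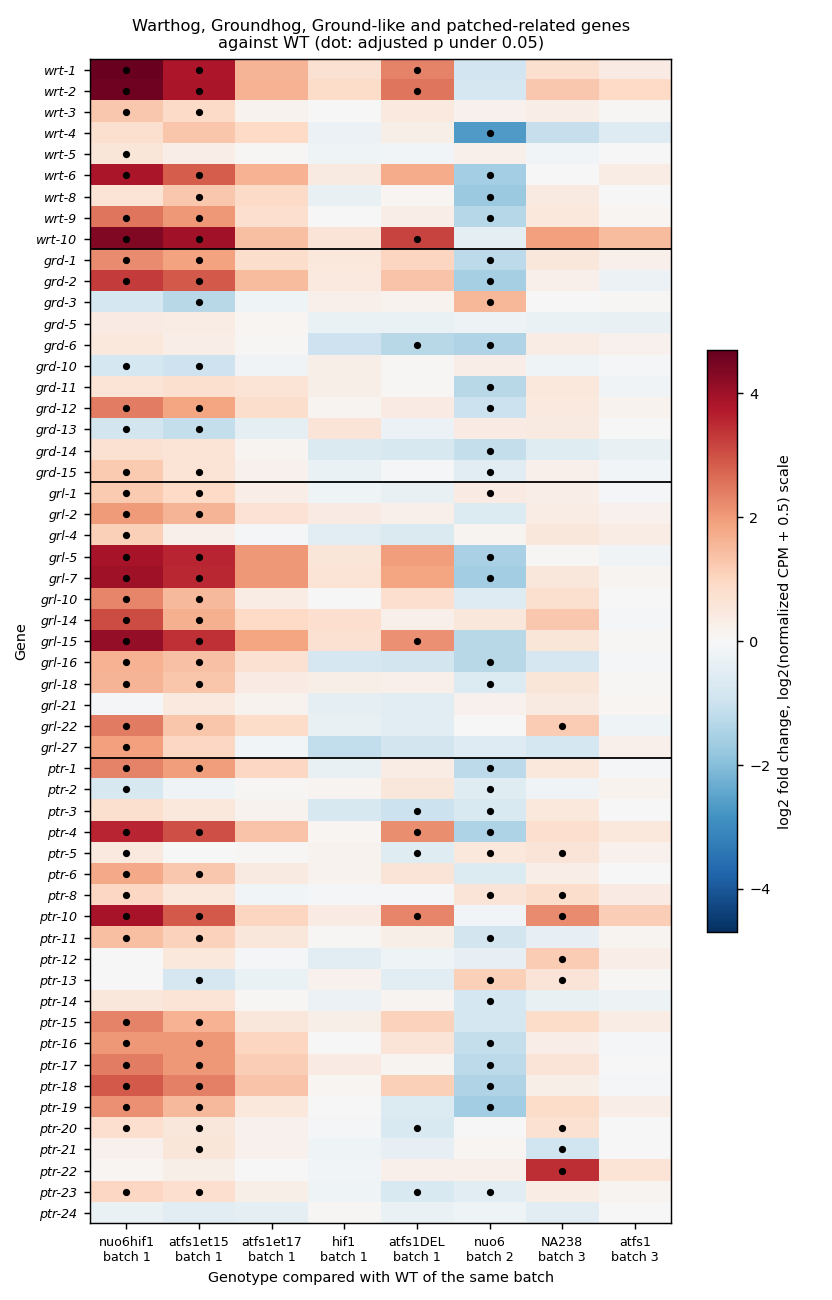
Log2 fold change of each of the 55 genes (rows, by family, on the log2(normalized CPM + 0.5) scale) in each genotype against WT of the same batch (columns), with a dot where the adjusted p was under 0.05. The columns of nuo6hif1 and atfs1et15 are mostly red (37 and 34 rises), that of nuo6 mostly blue (26 falls), and ptr-22 is at 3.46 in NA238.

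In the NA238 libraries, read as nuo-6;atfs-1, the calls were almost all receptor-like genes. Of the 22 ptr genes 7 rose and 1 fell, of the 13 grl genes 1 rose, and no wrt or grd gene was called. Groups did not overlap for 17 of the 55 genes on the higher side and 6 on the lower, beside 24.6% and 21.8% of all genes. ptr-22 was at 10.2, 8.69 and 9.13 normalized CPM in NA238 and at 0.428, 0.507 and 0.257 in WT of batch 3. Means were 9.34 ± 0.778 and 0.397 ± 0.128 (SD, n = 3 each). Its log2 fold change was 3.46 (SE 0.40, adjusted p from limma 1.28e-07), the largest of the 55 genes in this comparison. No other library of the series came near it: the highest value of ptr-22 outside NA238 was 2.37 normalized CPM, in nuo6, and the 3 atfs1 libraries were at 0.882, 0.977 and 0.821. ptr-22 lies on chromosome V (18919221 to 18931379, minus strand), and 3 annotated non-coding RNA genes of 53 to 148 overlapping bases lie within it.

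ptr-10 was at 7.28, 13.1 and 14.7 normalized CPM in NA238 and at 1.38, 0.736 and 6.14 in WT, just without overlap, and rose by 2.24 on the log2 scale (SE 0.64, adjusted p from limma 0.0129). That call was lost with edgeR and DESeq2 (adjusted p 0.0679 and 0.0545) and without WT replicate b, WT replicate bl, NA238 replicate bl or NA238 replicate r, with log2 fold changes between 1.73 and 2.94. ptr-12 was at 16.6, 23.5 and 23.1 normalized CPM against 8.94, 7.61 and 10.1 (log2 fold change 1.19, SE 0.31). grl-22 was at 2.81, 3.28 and 3.1998 against 1.02, 0.913 and 1.33 (1.19, SE 0.31). ptr-8 was at 32.1, 39.2 and 42.7 against 19.2, 22.2 and 21.2 (0.84, SE 0.27), a call that only leaving out NA238 replicate b did not end. In each of these genes every NA238 library lay above every WT library of the batch.

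ptr-21 was the only gene of the 55 to fall in NA238. It was at 31.1, 30.3 and 21.5 normalized CPM, against 58.7, 54.3 and 44.98 in WT and 63.8, 53.0 and 42.9 in atfs1. It fell by 0.93 on the log2 scale (SE 0.24, adjusted p from limma 0.00638) against WT, with no overlap, which was not called without NA238 replicate r. Tested directly against atfs1, NA238 was higher in 5 genes (ptr-22, grl-22, ptr-12, ptr-20 and ptr-5) and lower in ptr-21 (14.3% of all genes called, 8.07% as higher and 6.22% as lower). The log2 fold changes of ptr-22, grl-22, ptr-12 and ptr-21 there were 2.82, 1.39, 0.89 and -0.94. The call of ptr-12 was lost in 5 of 6 fits that left out 1 library, all but that without NA238 replicate b, and that of ptr-21 without NA238 replicate r or atfs1 replicate b. Fitted on batch 3 libraries of the groups compared alone, 19 genes were called against WT (14 higher, 5 lower) and 23 against atfs1, where 31.7% and 38.3% of all genes were called.

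Glia and socket markers were higher in NA238 beside these ptr genes, with 4 of 5 called (median log2 fold change 0.70) and a summed level of 134 to 156 normalized CPM against 80.1 to 87.7 in WT. Body wall muscle genes summed to between 3818 and 6849 normalized CPM against 2346 to 4486, and molting genes to between 1301 and 1816 against 514 to 1023. Called higher were 2 of 4 body wall muscle genes, 1 of 6 epidermis genes and 2 of 18 molting genes (11.1%, the same as the 11.1% of all genes). Called lower were 1 of 6 yolk genes and 1 of 4 intestine genes (medians -1.15 and -0.21). No sperm, oocyte or adult cuticle gene was called (medians -0.35, -0.33 and 0.36). With the stage index in the model, 16 genes were called (7 higher, 9 lower), beside 17.1% of all genes, and ptr-22, ptr-10, ptr-12, grl-22 and ptr-21 stayed called in the same direction. The call of ptr-8 was lost (adjusted p from limma 0.0597). Without WT replicate bl or without NA238 replicate r, 5 genes were called in place of 9. What part these markers have in the calls was not tested.

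The NA238 and nuo6 libraries come from different batches, so their effects were compared through WT of each batch. The NA238 effect was higher than the nuo6 effect for 9 of the 55 genes and lower for 2 (9.56% of all genes called, 3.98% as higher and 5.58% as lower). Largest were ptr-22 (log2 difference 3.21, SE 0.49), ptr-19 (2.49, SE 0.70) and ptr-10 (2.38, SE 0.78) and, below, grd-3 (-1.60, SE 0.40) and ptr-21 (-1.02, SE 0.30). grd-3 was at 86.1, 71.9 and 88.3 normalized CPM in NA238 and at 78.4, 96.6 and 76.7 in WT of batch 3, so the groups overlapped, unlike in nuo6. ptr-19 ranged from 1.27 to 4.996 normalized CPM in nuo6 (median 1.98) against 4.04 to 18.8 in WT (median 6.56), and was at 2.45, 2.496 and 1.69 in NA238 against 1.47, 0.609 and 1.03 in WT. Of the 26 genes that fell in nuo6, none was called lower in NA238. Only 1 of the 55 was called lower in NA238, so this overlap cannot tell whether those falls were absent. Of all genes, 6.03% were called lower and 11.1% higher in NA238, which has 3 libraries against 6 in nuo6. Of the 5 that rose in nuo6, ptr-5, ptr-8 and ptr-13 rose in NA238 as well. Counts of this test moved between 3, without WT replicate bl, and 15, without nuo6 replicate 2, in the 18 fits that left out 1 library, and were between 4 and 7 without WT replicate 6, 7 or b, nuo6 replicate 1, 4 or 6, or any NA238 library. The calls of ptr-22 and grd-3 held in all 18, that of ptr-10 was lost in 11, with log2 differences between 1.87 and 3.09, that of ptr-19 without WT replicate bl or NA238 replicate bl, and that of ptr-21 without WT replicate b, WT replicate bl or NA238 replicate r.

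The atfs-1 deletion gave different counts with different WT libraries. In the atfs1 libraries of batch 3 no gene of the 55 was called by limma, edgeR or DESeq2, none had an unadjusted p under 0.05, and their median log2 fold change was 0.05. In atfs1DEL against WT of batch 1, 6 genes rose and 5 fell (31.8% of all genes called, 18% as higher and 13.8% as lower). Groups did not overlap for 6 of the 55 on the higher side and 9 on the lower, beside 32.6% and 22.5% of all genes, so neither share was above that of all genes. wrt-10 was at 22.6, 17.4 and 31.04 normalized CPM against 1.43, 8.19 and 0.581 in WT of batch 1, a log2 fold change of 3.17 (SE 0.83). The atfs1 libraries of batch 3 were at 22.95, 19.1 and 31.6, and WT of batch 3 at 6.799, 2.41 and 31.9. wrt-2, wrt-1 and ptr-10 rose by 2.52, 2.34 and 2.31 on the log2 scale, and grd-6, ptr-3, ptr-23, ptr-20 and ptr-5 fell by 1.31, 1.00, 0.72, 0.71 and 0.55. These 9 genes did not overlap WT of batch 1. grd-6 was at 33.1, 32.3 and 24.9 normalized CPM in atfs1DEL, at 75.7, 133 and 41.4 in WT of batch 1 and at 25.9, 22.9 and 26.8 in WT of batch 3. With WT of batch 3 as the controls, none of the 55 genes and 0.224% of all genes were called, and grd-6, ptr-23 and ptr-5 changed sign (0.24, 0.17 and 0.14). Against WT of batch 1 the count was 4 without atfs1DEL replicate 2 or 3 and 6 without WT replicate 1 or atfs1DEL replicate 1. Calls of wrt-10, ptr-10 and ptr-5 held in all 6 of these fits, those of wrt-1 and wrt-2 only without WT replicate 2, and that of ptr-20 in all but that fit. The call of grd-6 held without WT replicate 3 or atfs1DEL replicate 1, that of ptr-3 without WT replicate 1 or 3, and that of ptr-23 in all but the fits without WT replicate 2, atfs1DEL replicate 2 or atfs1DEL replicate 3.

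Of 12 other genes of the pathway listed, 11 were tested. In nuo6hif1, 7 rose and 1 fell (72.7% called, beside 56% of all genes). In atfs1et15, 5 rose and 1 fell (54.5%, beside 33.3%). In nuo6, 1 rose and 4 fell (45.5%, near the 40.3% of all genes). In atfs1DEL against WT of batch 1, only ncr-2 was called (9.09%, beside 31.8% of all genes) and fell by 0.83 on the log2 scale. Its mean was 7.39 normalized CPM in atfs1DEL and 14.1 in WT of batch 1, but 8.44 in WT of batch 3. qua-1, the single Quahog gene, whose loss disturbs molting, ranged from 114 to 484 normalized CPM in atfs1et15 and from 359 to 409 in nuo6hif1, against 6.18 to 88.6 in WT of batch 1. Its log2 fold changes were 3.48 (SE 0.83) and 4.43 (SE 1.03), with no overlap. ptc-3, a Patched homolog needed for osmoregulation and molting, ranged from 155 to 318 normalized CPM in atfs1et15 against 34.7 to 122 in WT and rose by 1.77 on the log2 scale (SE 0.42). hog-1, che-14 (a relative of Dispatched that acts in cuticle secretion) and daf-6 (a patched-related protein of glial channels) rose in both genotypes, by between 1.79 and 2.75 on the log2 scale, and fell by 1.22, 1.30 and 1.12 in nuo6. ptc-1, the Patched homolog that acts in the germline, fell in both, by 0.66 in atfs1et15 and 0.70 in nuo6hif1. In nuo6, ncr-2 also fell, by 0.49, and ptd-2 rose by 0.68. In nuo6hif1, ncr-1 and ptd-2 rose by 1.12 and 0.91. tra-1, the homolog of the Gli transcription factors, was called in none of the 12 comparisons. None of the 11 was called in atfs1, atfs1et17, hif1 or NA238. che-14 also stands in the epidermis list and daf-6 in the glia list.

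**Figure D4:**
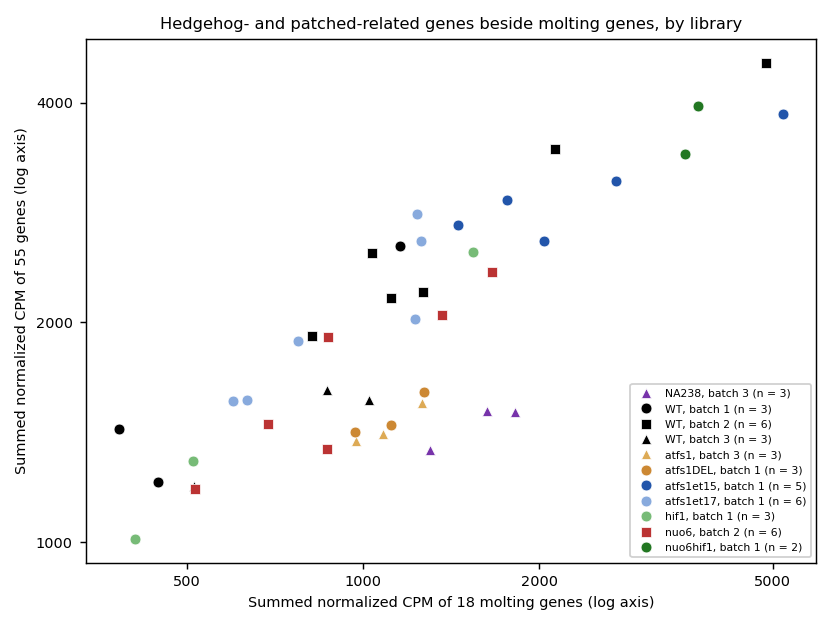
Summed normalized CPM of the 55 genes against that of 18 molting genes in each of the 43 libraries (log axes), with colour for genotype and shape for batch (circle 1, square 2, triangle 3). Libraries of batches 1 and 2 with more molting RNA had more RNA of the 55 genes, up to 4530.0 normalized CPM in WT replicate 7 of batch 2, while the 3 WT libraries of batch 3 (1195 to 1615) lie as low as the NA238, atfs1 and atfs1DEL libraries.

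Across single libraries, the 55 genes summed to between 1010.5 normalized CPM, in hif1 replicate 1, and 4530.0, in WT replicate 7 of batch 2. Both libraries of nuo6hif1 (3397 and 3955) and all 5 of atfs1et15 (2584 to 3855) were above all 3 WT libraries of batch 1 (1210.4 to 2542). In batch 2, nuo6 (1181 to 2341) overlapped WT (1919 to 4530.0), with nuo6 replicates 2 and 3 above the lowest WT library. In batch 3, NA238 (1335 to 1514) and atfs1 (1377 to 1549.8) lay within the range of WT (1195 to 1615), although molting genes were higher in every NA238 library than in every WT library. The highest group means were those of nuo6hif1 (3676) and atfs1et15 (3045), beside 2792 in WT of batch 2. High sums in single libraries were not confined to mutants. WT replicates 6 and 7 of batch 2 reached 3455 and 4530.0, within or above the range of the nuo6hif1 and atfs1et15 libraries, which are of batch 1.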

How the data were processed

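RNA of whole worms was sequenced in 43 libraries. Per the submitters' processing notes and the study's methods, reads were aligned to WBcel235 with STAR 2.5.2b and counted per gene, and edgeR 3.20.1 was used. Which strand was counted is not given in the sources used here, so genes that overlap another gene, ptr-18 and wrt-3 most of all, are less certain. The authors deposited CPM, scaled by library size, for 46739 genes. A second deposited table, filtered to 13837 genes, is treated as a signal: within each library it equals the CPM multiplied by a single factor. The authors had removed 1 library each of nuo6hif1 and atfs1et15. Whole reads were recovered from the deposited CPM (100% of values within 0.01 reads of a whole number) and used in alternatives only.

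Differences were tested by limma 3.58.1 (trend, empirical Bayes, two-sided) in R 4.3.3 on log2(normalized CPM + 0.5), with 1 mean for each of the 11 combinations of genotype and batch, over 12 comparisons. p-values were adjusted by Benjamini-Hochberg over all 13837 genes. The code was tested on simulated data. Genes, lists and tests were chosen with earlier results of these data known. Genes given in detail were, in each comparison with WT, up to 5 called rises and 5 called falls of largest change with a mean of at least 1 normalized CPM and no overlap, the 2 genes of highest level in each family, and up to 3 in each direction in the other comparisons. Others named with values, such as single genes set beside these, were chosen after their values were seen. Alternatives were a pseudocount of 2, scaling by library size alone, a table without the filter (27641 genes), an additive batch term, a replicate block, edgeR 4.0.16, DESeq2 1.42.0, only the groups compared, the stage index and each library left out. Leaving out the atfs1DEL libraries and using WT of batch 3 for them were added after seeing the data. Only WT and atfs1 of batch 3 had same-labelled libraries that deviated together (correlations 0.45 to 0.69), which comes from the data. Gene positions are from a later Ensembl annotation of WBcel235, in which all 55 genes matched. Counting error is small beside the spread between libraries for all but the lowest genes. Python 3.11.15, pandas 2.3.3 and matplotlib 3.10.9 were also used.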

Additional observations from a re-analysis of the deposited data

Results flagged for a closer look

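Single libraries that lay far from the rest of their group were sought for the genes given in detail in groups of 5 or 6 libraries (Dixon's test at the 95% level, 120 tests, of which chance gives about 1 in 20). The values flagged, all listed here, were about as many as chance alone gives at that rate. In WT replicate 7 of batch 2, ptr-10 was at 12.4, wrt-10 at 83.0 and wrt-2 at 99.6 normalized CPM, each far above the other 5 WT libraries. Replicate 7 was also the WT library with the highest summed molting genes, 4878 normalized CPM, whose part in these values was not tested. In nuo6, ptr-10 was high in replicate 2 (7.60 normalized CPM), ptr-2 was high in replicate 1 (140.1) and ptr-8 was low in replicate 6 (22.2). In atfs1et17, ptr-8 was high in replicate 5 (38.4 normalized CPM).

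For 10 of the genes given in detail, the NA238 effect differed from the nuo6 effect, each against WT of its batch, by limma with Benjamini-Hochberg adjustment. The log2 differences were 3.21 for ptr-22, 2.49 for ptr-19, 2.38 for ptr-10, 1.77 for grd-6, 1.57 for ptr-12, 1.18 for grl-22, 0.91 for ptr-23 and 0.70 for ptr-20, and -1.60 for grd-3 and -1.02 for ptr-21. The rule for genes given in detail took ptr-22, ptr-19, ptr-10, grd-3 and ptr-21 from the called genes of this same comparison. Their presence here therefore follows from that rule. Of all 55 genes, 11 (20%) were called, beside 9.56% of all genes tested. Genotype and sequencing batch both differ between the libraries behind these differences.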

How the results depend on the processing

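Counts of the 55 genes called that moved by over 1.5 times are given here beside the value as reported, and the cause of each was not tested. The share of all genes called also moved between settings, as given above for several of them. A moved count, here or in any passage above or below, is thus not by itself a trait of the 55 genes. With the stage index, 1 was called in atfs1et15 (38 without it), 6 in nuo6hif1 (40), 5 against hif1 (43), 1 in atfs1et15 against atfs1et17 (15), 1 in atfs1et17 (0), 16 in NA238 (9), 11 against atfs1 (6), 19 in atfs1DEL (11) and 6 in the NA238 difference from nuo6 (11). Log2 fold changes that turned with the index were, in nuo6hif1 against WT, -0.062 for wrt-1, -0.42 for wrt-2, -0.17 for wrt-10, -0.48 for grl-15, -0.67 for grl-7, 0.035 for grd-10 and 0.15 for ptr-2. Against hif1 they were -0.59 for wrt-1, -0.60 for wrt-10, -1.09 for wrt-2 and 0.40 for grd-3, and in atfs1et15 against atfs1et17 -0.046 for wrt-1 and -0.20 for wrt-2. With only the groups compared, counts were 19 in NA238, 23 against atfs1, 11 in nuo6hif1 against hif1 and 6 in the NA238 difference. In atfs1DEL, 7 were called with library size alone, 6 without the filter, 2 with an additive batch term, 7 with edgeR (2 higher, 5 lower), 8 with DESeq2 (2 higher, 6 lower) and 0 with WT of batch 3 as controls, where grd-6, ptr-23 and ptr-5 were at 0.24, 0.17 and 0.14. The additive term gave 2 in atfs1 and 1 in atfs1et17. Without the filter, 8 were called in atfs1et15 against atfs1et17 and 5 in the NA238 difference, for which edgeR gave 7. Library size alone moved the median of all genes by 0.12 in NA238, 0.11 in atfs1et15 and in atfs1et17 and 0.16 in NA238 against atfs1 (log2), and 0 called genes of the 55 turned sign.

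With the replicate number as a block, 10 genes were called in nuo6 in place of 31 and 1 in atfs1et17 in place of 0. In nuo6 the labels 4, 5 and 6 are shared with WT but their libraries did not deviate together (correlations 0.23, 0.07 and -0.39), so they share only a number. In the atfs1 comparison, where pairing held, the block called 0 genes as before.

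Leaving out 1 library at a time gave 18 to 34 called in nuo6, 5 to 8 in NA238, 4 to 12 in atfs1DEL, 21 to 43 in atfs1et15, 0 to 10 in atfs1et17, 30 to 43 in nuo6hif1, 4 to 22 in atfs1et15 against atfs1et17, 31 to 47 in nuo6hif1 against hif1, 4 to 5 in NA238 against atfs1 and 3 to 15 in the NA238 difference, and 0 in each such fit of atfs1 and hif1. Genes near 1 normalized CPM, such as ptr-22 outside NA238, rest on few reads.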
